A study of Mus musculus with 26 samples.

Results

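The genes described here are 33 members of the unfolded protein response and the integrated stress response, taken by mouse symbol from a named list out of the 55416 genes that both count tables hold. They fall into 2 branches. The ATF4 branch has 16 genes: Atf4, Ddit3, Trib3, Chac1, Asns, Sesn2, Ddit4, Psat1, Phgdh, Shmt2, Mthfd2, Slc7a11, Slc3a2, Slc7a5, Ppp1r15a and Nupr1. The ER branch, of the endoplasmic reticulum (ER), has 17 genes: Xbp1, Atf6, Herpud1, Hspa5, Hsp90b1, Dnajb9, Dnajc3, Sdf2l1, Pdia3, Pdia4, Pdia6, Calr, Canx, Creld2, Manf, Edem1 and Sel1l. Polyadenylated RNA was sequenced from C57BL/6 mice that carried lung metastases of B16F10, a mouse melanoma line given by intravenous injection. In every group the lungs thus bore melanoma. The groups were whole lung without treatment (n = 5) and with propranolol, a blocker of β-adrenoceptors (n = 5), lung monocytes sorted by flow cytometry without (n = 4) and with propranolol (n = 4), and CD4 T cells taken from lung with magnetic beads without (n = 4) and with propranolol (n = 4). Ages, doses and treatment times are not given in the sources used here, nor whether each library of a group had its own mouse. The p-values therefore measure library-to-library spread, which may be technical.

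The ER folds secreted and membrane proteins, and misfolded protein there sets off sensors, the kinase PERK, the kinase and RNase IRE1 and the membrane protein ATF6. PERK and related kinases for amino acid shortage, haem shortage and viral RNA all phosphorylate the translation factor eIF2α. This lowers protein synthesis in general while the transcription factor ATF4 is translated more, and ATF4 switches on genes of amino acid uptake and synthesis. IRE1 splices the mRNA of Xbp1, and XBP1 together with cleaved ATF6 raises chaperones and ER degradation factors. Plasma cells, alveolar type 2 cells and melanoma cells all carry a large secretory or membrane protein load.

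Promoter windows of 250 bases before and 50 bases after the start site, from RefSeq on build GRCm38.p6, were found for 30 of the 33 genes; Atf6, Manf and Slc7a5 had none. The ER stress element, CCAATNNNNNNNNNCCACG searched on both strands, is the site at which ATF6 binds together with NF-Y. Psat1 had 2 windows, so the members had 31 windows, and their matches are counted by gene. The element matched in 7 of 15 ER branch genes and in 0 of 15 ATF4 branch genes with a window. Among all windows it matched in 39 of 32851 (0.119%). Hsp90b1 held it at 2 places. The matches are shown because no window of the ATF4 branch held one. The fixed letters of the motif are in capitals, and each match is written in the direction of the motif.
Calr: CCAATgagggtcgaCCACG
Canx: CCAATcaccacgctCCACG
Creld2: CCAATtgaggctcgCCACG
Dnajc3: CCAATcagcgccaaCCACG
Hsp90b1: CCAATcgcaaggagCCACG
Hsp90b1: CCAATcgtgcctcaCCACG
Hspa5: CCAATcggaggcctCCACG
Pdia6: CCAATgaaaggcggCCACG
The matches lay between bases -212 and -47 from the start site, in Calr, Creld2 and 1 of the 2 places of Hsp90b1 on the strand opposite to the gene. Hspa5 encodes BiP, the main Hsp70 chaperone of the ER, and its window (chr2:34771840-34772139, + strand) shows the ER stress element in capitals.
Hspa5: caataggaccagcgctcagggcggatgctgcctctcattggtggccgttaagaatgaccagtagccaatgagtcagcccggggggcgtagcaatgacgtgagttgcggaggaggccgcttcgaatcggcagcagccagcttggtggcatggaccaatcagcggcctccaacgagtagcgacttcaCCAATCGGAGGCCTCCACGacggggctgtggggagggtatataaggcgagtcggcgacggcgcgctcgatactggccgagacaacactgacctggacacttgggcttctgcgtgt
The second form of the element, ATTGGNCCACG, matched in Herpud1 alone among the 33 genes and in 12 of all windows (0.0365%). The core of the composite ATF4 and C/EBP element, TGATGNAA, matched in 5 of 15 ATF4 branch genes with a window (Asns, Chac1, Nupr1, Slc7a11 and Trib3). It matched in 1 of 15 such ER branch genes (Herpud1), and in 1304 of all windows (3.97%). The core of the XBP1 site, TGACGTGG, matched in none of the 30 genes with a window and in 222 of all windows (0.676%). No match of any of these motifs overlapped another. Herpud1 is shown (chr8:94386179-94386478, + strand) because it held a match to the second form and one to the composite core, and Chac1 (chr2:119350992-119351291, + strand) and Slc7a11 (chr3:50443564-50443863, - strand) because they were among the ATF4 branch genes with the largest changes. Capitals mark the matches, which read TTGCATCA where the core lies on the opposite strand.
Herpud1: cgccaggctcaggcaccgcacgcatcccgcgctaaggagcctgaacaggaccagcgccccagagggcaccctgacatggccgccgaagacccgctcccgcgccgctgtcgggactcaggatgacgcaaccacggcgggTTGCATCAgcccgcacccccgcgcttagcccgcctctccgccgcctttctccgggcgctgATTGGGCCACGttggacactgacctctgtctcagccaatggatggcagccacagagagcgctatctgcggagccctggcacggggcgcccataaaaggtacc
Chac1: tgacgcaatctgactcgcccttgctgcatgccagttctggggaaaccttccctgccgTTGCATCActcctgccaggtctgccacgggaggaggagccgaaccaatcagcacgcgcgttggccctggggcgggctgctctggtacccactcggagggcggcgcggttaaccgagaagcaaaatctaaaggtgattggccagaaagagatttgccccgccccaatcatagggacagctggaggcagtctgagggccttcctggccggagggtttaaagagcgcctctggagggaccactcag
Slc7a11: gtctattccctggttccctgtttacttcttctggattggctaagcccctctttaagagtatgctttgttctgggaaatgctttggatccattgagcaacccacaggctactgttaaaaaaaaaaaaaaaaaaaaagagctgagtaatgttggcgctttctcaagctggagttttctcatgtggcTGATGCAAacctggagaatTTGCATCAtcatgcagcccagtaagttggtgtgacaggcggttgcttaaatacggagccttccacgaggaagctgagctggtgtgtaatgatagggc
A match describes the letters only and is neither a measured binding site nor a cause of a change. No binding was measured in these samples.

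Total counts per library ran from 17625672 to 48306925. Levels are in CPM, a gene's counts scaled to the total of its library. Values given per library are scaled by TMM, which corrects for the make-up of each library, and follow the order of the replicate numbers. A summed list of 10 melanocyte genes stood at 14217 to 21117 plain CPM in untreated and at 982 to 9117 plain CPM in treated lung. The libraries labelled monocytes held monocyte genes (4132 to 5379 plain CPM over 9 genes without treatment), and also endothelial (5262 to 5410.3), alveolar type 2 (3697 to 4003) and melanocyte genes (3802 to 4516). They are therefore named by their label. In CD4 T cell libraries, 6 of the 10 melanocyte genes, Tyrp1 among them, were at 0 in every library. These libraries also held plasma cell genes, at 9198 to 9499 plain CPM over 8 genes without treatment. A gene was called higher or lower at an adjusted p below 0.05 in edgeR's quasi-likelihood test over all tested genes, and all 33 genes were tested in every comparison.

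In untreated lung and in the untreated libraries labelled monocytes, ER chaperone mRNAs were the most abundant of the 33 genes, whereas Ddit4 came first in those labelled CD4 T cells. Per kb of exon, on plain CPM, Calr, the lectin chaperone calreticulin, stood at 353 ± 38.1 in lung, 408 ± 15.2 in the libraries labelled monocytes and 199 ± 1.58 in those labelled CD4 T cells (mean ± SD, n = 5, 4 and 4). Hspa5 stood at 201 ± 10.3, 349 ± 8.67 and 143 ± 3.62 CPM per kb. In lung the order by mean level per kb began with Calr, Canx, Pdia3, Hspa5, Hsp90b1 and Pdia4, in which Canx and Pdia3, Pdia3 and Hspa5, and Hsp90b1 and Pdia4 differed by less than their SD. In the other kinds of material the first 5 genes (Calr, Hspa5, Pdia3, Hsp90b1 and Canx in the libraries labelled monocytes, and Ddit4, Calr, Hsp90b1, Hspa5 and Pdia3 in those labelled CD4 T cells) were each separated by more than the SD. Among the ATF4 branch, Atf4 was the most abundant per kb in lung (90.2 ± 9.01) and in the libraries labelled monocytes (138 ± 1.78). In the libraries labelled CD4 T cells Ddit4, an inhibitor of the growth kinase complex mTORC1, stood above it, at 238 ± 4.97 against 67.7 ± 1.39 CPM per kb. In the libraries labelled CD4 T cells the least abundant were Slc7a11, the cystine and glutamate exchanger, at 0.0648 ± 0.0079 CPM per kb, Chac1, an enzyme that degrades glutathione, at 0.598 ± 0.142, and Nupr1, a small stress-induced nuclear protein, at 0.858 ± 0.249. Slc7a11 was the least abundant in lung too, at 0.438 ± 0.0636.

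**Figure D1:**
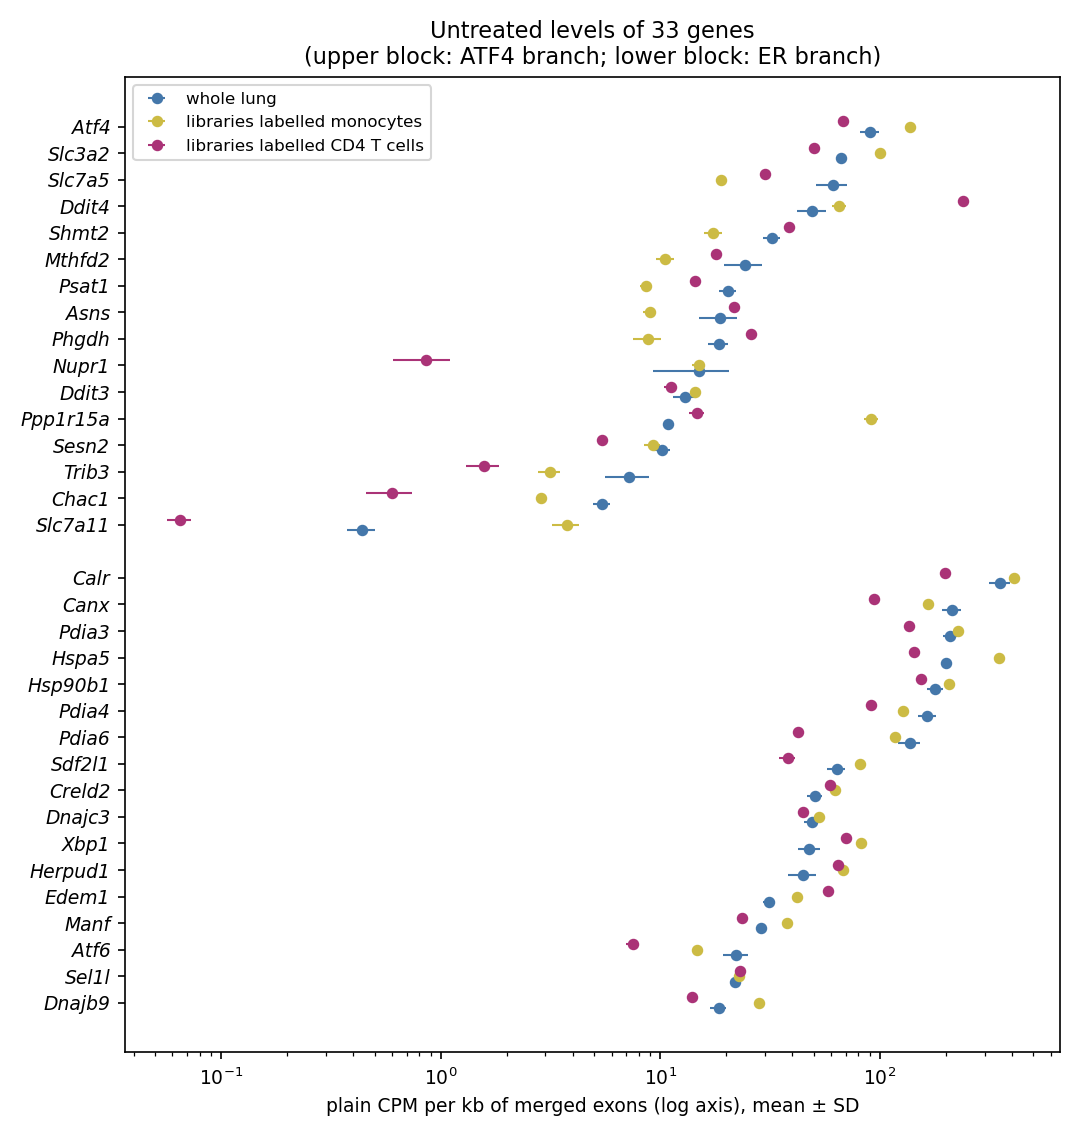
Untreated levels of the 33 genes in plain CPM per kb of merged exons on a log axis; points are means and bars SD over 5 lung, 4 monocyte and 4 CD4 T cell libraries, with the ATF4 branch in the upper block and the ER branch in the lower. Ppp1r15a and Slc7a11 lie highest in the libraries labelled monocytes, and Ddit4 in those labelled CD4 T cells.

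The untreated groups differed in most members, but also in most of all tested genes. Against untreated lung, 65.4% of all tested genes were called for the libraries labelled monocytes and 83.9% for those labelled CD4 T cells. Differing in most members is thus not a result about the members. Against untreated lung, the libraries labelled monocytes had 6 ATF4 branch genes higher and 8 lower, and 13 ER branch genes higher and 1 lower, where 31.9% of tested genes were called higher and 33.6% lower. Ppp1r15a, which directs a phosphatase to eIF2α and so ends the block of translation, was higher by 3.24 log2 units (SE 0.067, adjusted p = 1.81e-10), and Slc7a11 by 3.27. Hspa5 (0.97), Xbp1 (0.95), Dnajb9 (0.79), an Hsp40 partner of BiP, and Atf4 (0.78) were higher too. The amino acid transporter Slc7a5 (-1.52), the serine synthesis genes Psat1 (-1.07) and Phgdh (-0.90) and the mitochondrial folate gene Mthfd2 (-1.03) were lower. The libraries labelled CD4 T cells had 3 ATF4 branch genes higher and 11 lower than lung, and 3 ER branch genes higher and 12 lower, where 39.9% of tested genes were called higher and 44.0% lower. Ddit4 was higher by 2.16 log2 units (SE 0.11, adjusted p = 3.68e-09), and Edem1 (0.78), a factor of glycoprotein degradation, Xbp1 (0.45) and Herpud1 (0.42) were higher. Nupr1 (-4.22), Chac1 (-3.30), Slc7a11 (-2.86), the pseudokinase gene Trib3 (-2.31) and Pdia6 (-1.80) were lower. Both contrasts share the untreated lung libraries, and for the CD4 T cells the kind of material and the count table cannot be told apart.

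With propranolol, most of both branches fell in whole lung. In the ATF4 branch 12 of 16 genes fell and none rose, with a median log2 change of -0.52, and in the ER branch 13 of 17 fell and 1 rose, with a median of -0.81. Among all tested genes 35.3% were called lower and 35.5% higher, and the median change was 0.03. Scaled on library totals alone, the median of all genes was 0.21 and 8268 genes were called higher and 4770 lower, Ddit3, Chac1, Phgdh, Slc3a2 and Dnajc3 lost their calls, and Ppp1r15a and Xbp1 were called higher. In these bulk samples fewer cells of a type and less RNA per cell cannot be told apart.

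Atf4 itself fell in lung. Atf4 stood at 252, 260.3, 212, 198 and 215 CPM in the untreated and at 178, 157, 151, 152 and 180.2 CPM in the treated libraries, without overlap (log2 change -0.48 ± 0.094 (SE), adjusted p = 0.00113). Ddit3, the gene of the transcription factor CHOP, is an ATF4 target. Ddit3 stood at 27.01, 26.7, 23.3, 19.3 and 22.8 CPM in the untreated and at 22.3, 17.8, 16.1, 16.2 and 21.6 CPM in the treated libraries, and the groups overlapped (log2 change -0.34 ± 0.13 (SE), adjusted p = 0.0309). Its call was lost without untreated library 1 or 2 or treated library 2, 3 or 4, with adjusted p from 0.0127 to 0.0963 over the fits that left out 1 library. The smallest p of the branch belonged to Ddit4. Ddit4 stood at 106, 111, 72.7, 92.7 and 81.9 CPM in the untreated and at 36.8, 36.9, 31.2, 28.2 and 35.7 CPM in the treated libraries (log2 change -1.46 ± 0.13 (SE), adjusted p = 4.22e-05). Every treated lung lay at or below 36.9 CPM and every untreated lung at or above 72.7 CPM. Sesn2, a leucine sensor that restrains mTORC1, came after Atf4 by p. Sesn2 stood at 39.4, 35.9, 33.5, 37.6 and 42.4 CPM in the untreated and at 29.3, 24.6, 24.8, 22.6 and 32.97 CPM in the treated libraries (log2 change -0.49 ± 0.11 (SE), adjusted p = 0.00224), without overlap.

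Psat1, of serine synthesis, had the next smallest p. Psat1 stood at 108, 94.5, 79.1, 94.2 and 87.6 CPM in the untreated and at 56.9, 30.3, 22.7, 16.02 and 64.3 CPM in the treated libraries (log2 change -1.29 ± 0.33 (SE), adjusted p = 0.00493). Treated libraries 1 and 5 were the highest of their group and treated library 4 the lowest, and the groups did not overlap. Slc7a5, the light chain of the large neutral amino acid transporter, followed the same order. Slc7a5 stood at 289, 290.5, 191, 213 and 232 CPM in the untreated and at 130.4, 74.7, 38.5, 30.7 and 155 CPM in the treated libraries (log2 change -1.50 ± 0.40 (SE), adjusted p = 0.00604). Its partner Slc3a2 fell by less, to 216 ± 10.6 CPM (mean ± SD, n = 5; log2 change -0.21), without overlap. The serine synthesis gene Phgdh (-0.93), the mitochondrial folate genes Shmt2 (-0.97) and Mthfd2 (-1.29), Asns (-0.84), which makes asparagine, and Chac1 (-0.51) also fell. Chac1 was not called in 6 of the 10 fits that left out 1 library (adjusted p from 0.00411 to 0.0949), namely those without untreated library 1 or 2 or treated library 2, 3, 4 or 5. Phgdh was not called without treated library 2 or 3 (adjusted p from 0.0029 to 0.0614 over the 10 fits). Trib3 (-0.53), Slc7a11 (0.26), Ppp1r15a (0.18) and Nupr1 (0.35) did not pass the test. Trib3 passed it, as lower, without treated library 1 or 5, Ppp1r15a, as higher, without treated library 5, and Nupr1, as higher, without untreated library 2.

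Among the treated lungs the melanocyte genes were highest in library 5, then 1, 2, 3 and 4. In the ATF4 branch Psat1, Phgdh, Shmt2, Mthfd2, Asns, Slc7a5 and Slc7a11 followed this order, whereas Chac1 and Slc3a2 did not. Trib3 departed from it only in treated lungs 3 and 4 (7.055 and 7.12 CPM), and followed it on plain CPM (7.526 and 7.496). In the ER branch Atf6, Sdf2l1, Pdia4, Pdia6, Calr, Canx, Creld2, Manf and Edem1 followed the order of the melanocyte genes too. Hspa5 (444 and 452.4 CPM), Hsp90b1 (433.2 and 460.4 CPM) and Pdia3 (417.9 and 418.3 CPM) departed from it only in treated lungs 2 and 3. The summed level of Tyrp1, Dct, Pmel and Mlana was 6252, 3036, 1468, 773 and 7334 plain CPM in treated lungs 1 to 5 and 17269, 14626, 11446, 15050.3 and 14106 plain CPM in untreated lungs 1 to 5. A further fit also held the melanocyte level of each lung, taken as the mean of log2 plain CPM over the same genes. With it 1 ATF4 branch gene, Ddit4 (-1.147), was called lower and 1, Slc7a11 (1.40), higher, and the median of the branch was 0.0099. In that fit 17.4% of all tested genes were called (1433 higher and 1806 lower), and 11 ER branch genes were called lower and 0 higher, with a median of -0.51, among them Hspa5 (-0.63), Manf (-0.58) and Pdia6 (-0.70). The melanocyte level differs between the groups without overlap, so its part and that of propranolol cannot be told apart. Without treated libraries 1 and 5, those with the most melanocyte RNA, 13 ATF4 branch genes were called lower and 1 higher, with a median of -0.97, where 70.9% of all tested genes were called (6668 higher and 7127 lower).

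**Figure D2:**
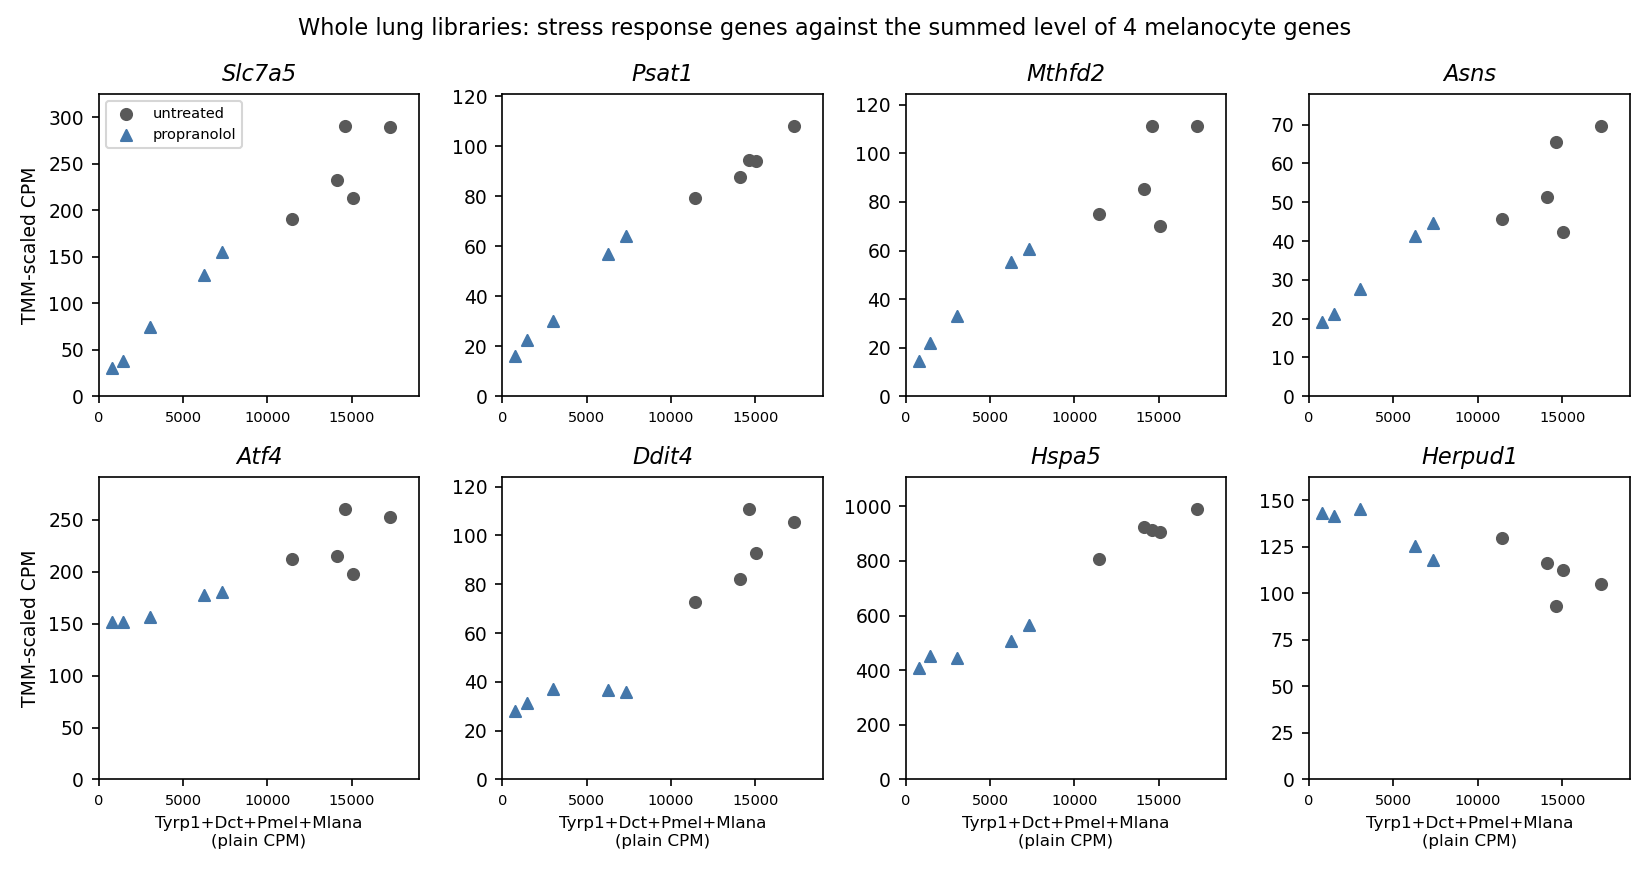
Level of 8 genes (TMM-scaled CPM, vertical axis) against the summed level of 4 melanocyte genes (plain CPM, horizontal axis) in each of the 10 whole lung libraries; circles are untreated and triangles treated lungs. Among treated lungs Slc7a5, Psat1, Mthfd2 and Asns follow the order of the melanocyte sum, whereas Ddit4 lies between 28.2 and 36.9 CPM in all 5.

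Most of the ER branch fell in lung, and the groups did not overlap in any called loss. How often this holds among all tested genes was not counted. Hspa5 comes first. Hspa5 stood at 989.7, 912, 807, 906 and 923 CPM in the untreated and at 506, 444, 452, 409.7 and 567 CPM in the treated libraries (log2 change -0.93 ± 0.10 (SE), adjusted p = 7.96e-05). Manf, a secreted factor released under ER stress, behaved alike. Manf stood at 116, 110.3, 99.3, 107 and 108 CPM in the untreated and at 60.95, 54.6, 51.6, 48.8 and 70.01 CPM in the treated libraries (log2 change -0.92 ± 0.10 (SE), adjusted p = 7.32e-05). In both genes every treated lung lay below every untreated lung. Pdia6 and Atf6 had the next smallest p. Pdia6, a disulfide isomerase, fell from 548 ± 75.4 to 253 ± 45.3 CPM (mean ± SD, n = 5; log2 change -1.11 ± 0.14 (SE), adjusted p = 0.000118), with 612, 630.4, 444, 519.7 and 533 CPM untreated and 287, 230.5, 218, 215 and 315 CPM treated. Atf6, the gene of the sensor, fell from 219 ± 31.1 to 125 ± 10.9 CPM (log2 change -0.81 ± 0.10 (SE), adjusted p = 0.00014), with 250.1, 183, 189.6, 229 and 244 CPM untreated and 131, 127, 119.8, 109 and 137 CPM treated. The disulfide isomerases Pdia3 (-0.70) and Pdia4 (-1.19), the lectin chaperones Calr (-0.96) and Canx (-1.07), the Hsp90 of the ER, Hsp90b1 (-0.73), the resident ER proteins Sdf2l1 (-1.29) and Creld2 (-0.81), Edem1 (-0.62) and Dnajc3 (-0.20), an Hsp40 that also inhibits PERK, all fell.

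Xbp1 did not pass the test in lung. Xbp1 stood at 151, 187, 182, 149.7 and 157 CPM in the untreated and at 186, 189.5, 184, 180.0 and 149 CPM in the treated libraries, with overlap (log2 change 0.10 ± 0.092 (SE), adjusted p = 0.332). It was called higher on library totals alone (0.29), with a floor of 5 CPM on the mean and in 1 fit with the libraries labelled monocytes, and so was Ppp1r15a. Counts per gene do not separate spliced from unspliced Xbp1. Herpud1, an ER membrane protein of the degradation pathway, was the only member called higher in lung in this fit. Herpud1 stood at 105, 93.1, 129, 113 and 116 CPM in the untreated and at 126, 145, 142, 143 and 118 CPM in the treated libraries, with overlap (log2 change 0.28 ± 0.095 (SE), adjusted p = 0.0219). Its call was lost with no filter, and without untreated library 1 or treated library 2 (adjusted p from 0.00899 to 0.0572 over the 10 fits). Dnajb9 (-0.14) and Sel1l (-0.09), the adaptor of an ER ubiquitin ligase, did not pass the test. Scaled on 20 markers of resident lung cells, the median change of all genes was -0.69 (1956 called higher and 10455 lower), and Herpud1 (-0.43), Xbp1 (-0.62) and Ppp1r15a (-0.56) were called lower, 14 ATF4 branch and 17 ER branch genes being lower in all. In treated lung the plasma cell list stood at 589 to 849.5 plain CPM against 231 to 324 without treatment (6 of 7 tested genes called higher). The heat shock list stood at 659.9 to 936 against 1373 to 1692 plain CPM (6 of 6 lower), the dividing cell list at 197 to 668 against 742 to 1019 (5 of 5 lower), and the hypoxia and glycolysis list at 1300.1 to 1322 against 1783 to 2920.4 (5 of 6 lower and 1 higher). The alveolar type 2 list stood at 11282 to 18199 against 5999 to 10646 (5 of 5 higher), the endothelial list at 2282 to 3650.5 against 1237 to 2075 (6 of 6 higher), the monocyte list at 3452 to 4894 against 1662 to 2839 (7 of 9 higher), and all 20 genes of the B cell, CD4 T cell and cytotoxic lists were called higher. The part of these lists in the members' changes was not tested.

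In the libraries labelled monocytes the branches moved apart. In the ER branch 15 of 17 genes fell and none rose with propranolol (median log2 change -0.43). In the ATF4 branch 9 of 16 rose and 1 fell (median 0.28). Among all tested genes 16.1% were called lower and 14.3% higher, with a median change of 0.02. On library totals alone 3644 were called higher and 2424 lower, and Ddit3 and Canx lost their calls.

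Atf4 did not pass the test in these libraries. Atf4 stood at 338, 330.4, 324 and 328 CPM in the untreated and at 347, 340.5, 338 and 329 CPM in the treated libraries, with overlap (log2 change 0.04 ± 0.034 (SE), adjusted p = 0.435). Ddit3 was slightly lower. Ddit3 stood at 24.2, 25.3, 25.2 and 25.7 CPM in the untreated and at 22.9, 21.6, 22.5 and 21.4 CPM in the treated libraries, without overlap (log2 change -0.18 ± 0.051 (SE), adjusted p = 0.021). Its call was lost in 5 of the 8 fits that left out 1 library, those without untreated library 2, 3 or 4 or treated library 2 or 4 (adjusted p from 0.0212 to 0.058). Slc7a5, Phgdh, Psat1 and Shmt2 rose with the smallest p of the branch. Slc7a5 stood at 75.4, 75.3, 68.7 and 67.4 CPM in the untreated and at 94.5, 105, 117 and 114 CPM in the treated libraries (log2 change 0.59 ± 0.07 (SE), adjusted p = 0.000107). Phgdh stood at 18.5, 21.9, 25.5 and 22.9 CPM in the untreated and at 41.4, 37.1, 32.9 and 33.8 CPM in the treated libraries (log2 change 0.71 ± 0.10 (SE), adjusted p = 0.000383). The treated libraries of both genes all lay above the untreated ones. Psat1 stood at 38.6, 36.1, 34.8 and 39.5 CPM in the untreated and at 46.7, 45.4, 50.96 and 49.9 CPM in the treated libraries (log2 change 0.37 ± 0.058 (SE), adjusted p = 0.000739). Shmt2 stood at 52.5, 50.7, 59.02 and 58.6 CPM in the untreated and at 67.2, 68.5, 72.1 and 71.9 CPM in the treated libraries (log2 change 0.34 ± 0.058 (SE), adjusted p = 0.00118). These groups did not overlap either. Chac1 (0.72), Mthfd2 (0.37), Ddit4 (0.35), Trib3 (0.38) and Sesn2 (0.22) rose as well. Trib3 was called in only 1 of the 8 fits that left out 1 library, the one without treated library 1 (adjusted p from 0.0155 to 0.0913), and Sesn2 was not called without untreated library 1 or 4 or treated library 2 or 4 (adjusted p from 0.0225 to 0.0575). Slc3a2, Asns, Slc7a11, Ppp1r15a and Nupr1 did not pass the test, with log2 changes between -0.08 and 0.12.

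In the ER branch BiP had the smallest p. Hspa5 stood at 1579, 1536, 1446 and 1451 CPM in the untreated and at 818, 841, 907 and 924 CPM in the treated libraries (log2 change -0.78 ± 0.05 (SE), adjusted p = 1.64e-06). Manf stood at 136, 141, 134 and 132 CPM in the untreated and at 81.2, 76.1, 86.9 and 85.8 CPM in the treated libraries (log2 change -0.72 ± 0.048 (SE), adjusted p = 2.05e-06). No treated library reached the lowest untreated one in either gene. Creld2, a secreted ER resident protein, fell from 86.5 ± 2.62 to 50.2 ± 4.14 CPM (mean ± SD, n = 4; log2 change -0.79 ± 0.059 (SE), adjusted p = 4.33e-06), with 86.1, 87.5, 89.4 and 83.2 CPM untreated and 44.98, 49.3, 51.5 and 54.9 CPM treated. Dnajc3 fell from 276 ± 10.8 to 201 ± 3.42 CPM (log2 change -0.46 ± 0.038 (SE), adjusted p = 7.95e-06), with 288, 283, 265 and 269 CPM untreated and 200.5, 202, 205 and 197 CPM treated. Xbp1 fell here. Xbp1 stood at 275, 267, 279 and 262 CPM in the untreated and at 216, 206, 219 and 222 CPM in the treated libraries, without overlap (log2 change -0.33 ± 0.038 (SE), adjusted p = 8.96e-05). Sdf2l1 (-0.79), Hsp90b1 (-0.54), Pdia6 (-0.46), Calr (-0.44), Dnajb9 (-0.43), Pdia4 (-0.40), Herpud1 (-0.39), Pdia3 (-0.37), Sel1l (-0.36) and Canx (-0.20) fell too. The call of Canx was lost without untreated library 1 or 2 or treated library 1 or 2 (adjusted p from 0.0262 to 0.112). Atf6 (0.13) and Edem1 (0.05) did not pass the test.

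Libraries 1 and 2, and 3 and 4, of each treatment lay close together in these libraries, with a chi-square per degree of freedom of 3.52 to 5.22 within such a pair against 12.2 to 35.4 between pairs. Summed into 2 against 2 libraries, 3 ATF4 branch genes (Chac1, Phgdh and Slc7a5) were called higher and 0 lower, and 9 ER branch genes lower, where 6.67% of all tested genes were called. In 1 fit with the lung libraries, where both kinds of material share 1 estimate of the spread, Chac1 alone of the ATF4 branch was called higher, where 10.2% of all tested genes were called (819 higher and 1250 lower). With propranolol the endothelial list stood at 4038 to 4084 plain CPM against 5262 to 5410.3 without (6 of 6 lower), the heat shock list at 1501 to 1756 against 2170.1 to 2420.2 (3 of 6 lower), and the melanocyte list at 4769 to 6897 against 3802 to 4516 (8 of 10 higher). The fibroblast list stood at 1277 to 1315 against 1955 to 2231 (4 of 5 lower and 1 higher), the B cell list at 316 to 344 against 121 to 200.4 (6 of 6 higher) and the plasma cell list at 317 to 468 against 208 to 229.8 (4 of 7 tested genes higher). Their part in the members' changes was not tested.

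In the libraries labelled CD4 T cells most of the ATF4 branch rose with propranolol. Here 14 of 16 ATF4 branch genes rose, 1 fell and 1 was not called, with a median log2 change of 2.20. In the ER branch 12 of 17 rose and 3 fell, with a median of 0.32. Among all tested genes 30.1% were called higher and 29.9% lower, with a median change of -0.04. The TMM factors were 1.141 to 1.146 in the untreated and 0.8673 to 0.8794 in the treated libraries, and the direction of small changes depended on the scaling. Scaled on library totals alone, the median of all genes was -0.43 (2886 called higher and 8064 lower), the ATF4 branch kept 14 genes higher and 1 lower, and the ER branch had 7 higher and 7 lower. Treated libraries 1 and 2 stood farthest apart, with a chi-square per degree of freedom of 139 against 5.47 between libraries 3 and 4, and over the fits that left out 1 library 14 to 15 ATF4 branch and 12 ER branch genes were called higher.

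Atf4 rose without overlap. Atf4 stood at 139.5, 144, 138 and 138 CPM in the untreated and at 627, 718, 639 and 660.1 CPM in the treated libraries (log2 change 2.24 ± 0.06 (SE), adjusted p = 7.88e-11). So did CHOP. Ddit3 stood at 16.1, 15.6, 17.1 and 18.2 CPM in the untreated and at 52.8, 67.04, 61.7 and 63.3 CPM in the treated libraries (log2 change 1.87 ± 0.094 (SE), adjusted p = 1.33e-08). Treated library 1 was the lowest and treated library 2 the highest of its group in both genes. Ppp1r15a and Chac1 had still larger changes. Ppp1r15a stood at 41.2, 34.3, 39.3 and 36.03 CPM in the untreated and at 402, 327, 352 and 348 CPM in the treated libraries (log2 change 3.24 ± 0.086 (SE), adjusted p = 6.92e-11). Chac1 stood at 1.09, 0.616, 0.936 and 0.786 CPM in the untreated and at 38.2, 50.6, 43.5 and 44.1 CPM in the treated libraries (log2 change 5.71 ± 0.16 (SE), adjusted p = 1.29e-10). Chac1 was low without treatment, with at most 1.09 CPM, and stood at 38.2 CPM or more with propranolol. The amino acid carriers rose together. Slc3a2 stood at 148, 159, 148 and 163 CPM in the untreated and at 680.0, 641, 603 and 599 CPM in the treated libraries (log2 change 2.03 ± 0.064 (SE), adjusted p = 2.75e-10). Slc7a11 stood at 0.892, 0.672, 0.838 and 0.759 CPM in the untreated and at 14.2, 18.3, 16.2 and 17.1 CPM in the treated libraries (log2 change 4.39 ± 0.16 (SE), adjusted p = 7.67e-10). Their treated libraries all lay above the untreated ones, and so did those of Slc7a5 (2.24), the third carrier gene.

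Trib3 rose by 4.55 log2 units, from 2.94 ± 0.504 to 68.5 ± 18.2 CPM (mean ± SD, n = 4), with treated libraries from 47.4 (library 1) to 91.7 CPM (library 2). Nupr1 (2.95), Sesn2 (2.91) and Mthfd2 (2.16) rose too, and Psat1 (1.003), Shmt2 (0.86) and Phgdh (0.72) by less. Asns, a standard ATF4 target, did not pass the test, though it did in DESeq2 and in edgeR with no filter. Asns stood at 48.9, 51.6, 55.2 and 52.9 CPM in the untreated and at 44.1, 94.7, 68.6 and 66.6 CPM in the treated libraries (log2 change 0.39 ± 0.18 (SE), adjusted p = 0.0739). Treated library 1 lay below and the other 3 above all untreated libraries, and without treated library 1 Asns was called higher (adjusted p from 0.000595 to 0.153 over the 8 fits that left out 1 library). Ddit4 went the opposite way. Ddit4 stood at 360.0, 372, 359 and 374 CPM in the untreated and at 140.3, 203, 172 and 154 CPM in the treated libraries, without overlap (log2 change -1.13 ± 0.10 (SE), adjusted p = 1.57e-06).

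The rise of the ER branch was uneven. Herpud1 and Dnajb9 rose most. Herpud1 stood at 130.2, 132, 132 and 129.6 CPM in the untreated and at 437, 501, 444 and 441 CPM in the treated libraries (log2 change 1.80 ± 0.06 (SE), adjusted p = 4.50e-10). Dnajb9 stood at 31.7, 29.9, 30.3 and 32.3 CPM in the untreated and at 102, 113, 109 and 108 CPM in the treated libraries (log2 change 1.80 ± 0.063 (SE), adjusted p = 6.42e-10). Treated library 2 was the highest in both. Hspa5 rose without overlap. Hspa5 stood at 510.0, 533, 543 and 536 CPM in the untreated and at 1353, 1557, 1480.0 and 1488 CPM in the treated libraries (log2 change 1.47 ± 0.058 (SE), adjusted p = 1.73e-09). Calr rose with a narrow spread. Calr stood at 502, 505, 503 and 498 CPM in the untreated and at 859, 843, 854 and 843 CPM in the treated libraries (log2 change 0.76 ± 0.047 (SE), adjusted p = 8.43e-08). Xbp1 rose, again with treated library 1 lowest and library 2 highest. Xbp1 stood at 187, 197, 205 and 208 CPM in the untreated and at 336, 472, 396 and 387 CPM in the treated libraries (log2 change 0.998 ± 0.092 (SE), adjusted p = 2.60e-06). Atf6 (0.70) and Manf (0.69) rose too.

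The other chaperones moved less. Pdia6 (0.40), Pdia3 (0.32), Edem1 (0.25), Canx (0.24) and Hsp90b1 (0.21) were called higher under TMM. Scaled on library totals alone, Pdia6 (0.02) lost its call, the sign turned for Pdia3 (-0.07) and Canx (-0.14), which were then not called, and Hsp90b1 (-0.18) and Edem1 (-0.14) were called lower. Pdia4 (-0.45), Sdf2l1 (-0.42) and Sel1l (-0.13) fell. The call of Sel1l held in only 1 of the 8 fits that left out 1 library, the one without treated library 1 (adjusted p from 0.0261 to 0.146). Dnajc3 (-0.13) and Creld2 (0.10) did not pass the test under TMM. Without treated library 2 Dnajc3 was called lower (adjusted p from 0.0157 to 0.250 over the 8 fits), and on library totals alone both were called lower (Dnajc3 -0.52, Creld2 -0.29).

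Other genes moved in the same libraries. With propranolol the heat shock list stood at 1671 to 1740.0 plain CPM against 1396 to 1443 without (6 of 6 called higher), and the dividing cell list at 848 to 1238 against 1479.9 to 1577 (2 of 5 higher and 3 lower). Nr4a1 and Nr4a3, nuclear receptor genes induced early when T cells are stimulated and named here after their values were seen, rose. Nr4a1 stood at 2867 to 3519 plain CPM against 91.2 to 97.9, and Nr4a3 at 3383 to 4539.8 against 34.4 to 39.2. Lists of other cells moved too: the monocyte list stood at 894 to 1004 against 397 to 503 plain CPM (7 of 9 higher), the B cell list at 358 to 477 against 144 to 187 (6 of 6 higher) and the neutrophil list at 439 to 708 against 158 to 213 (4 of 4 higher). The plasma cell list stood at 5718, 9655, 7376 and 7105 plain CPM in treated libraries 1 to 4, with library 1 lowest and library 2 highest as for Xbp1. The part of these genes in the members' changes was not tested.

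**Figure D3:**
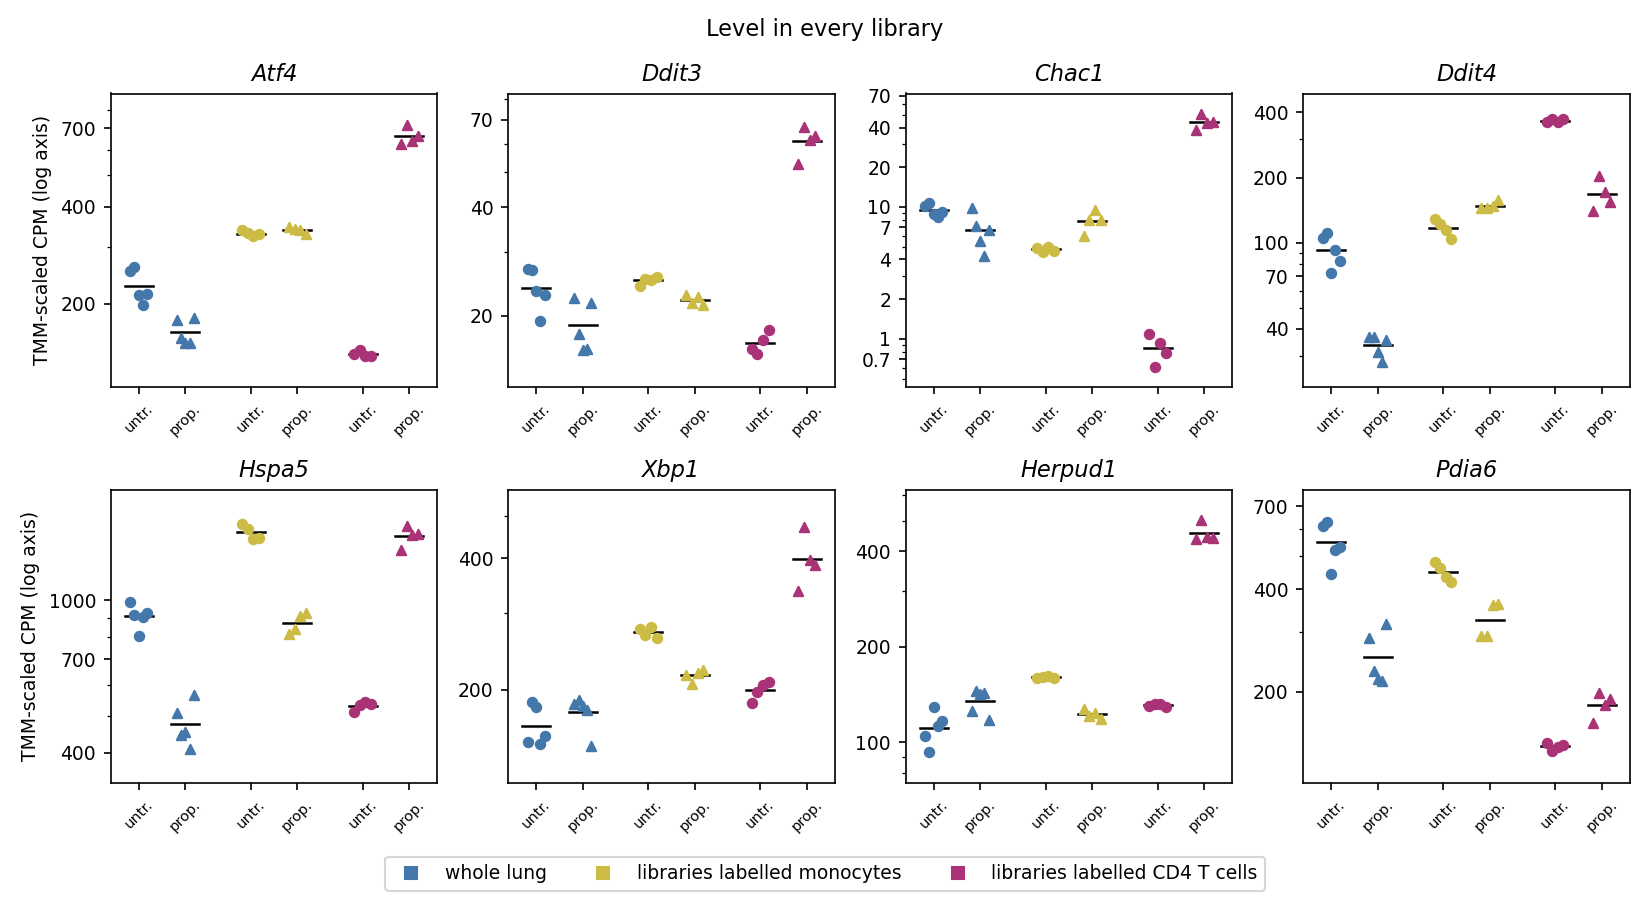
Level of 8 genes in every library (TMM-scaled CPM, log axis); circles are untreated and triangles treated libraries, lines are group means, and colours mark the kind of material. Hspa5 and Pdia6 are lower with propranolol in lung and in the libraries labelled monocytes and higher in those labelled CD4 T cells, where Pdia6 lost its call on library totals alone.

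The size of the propranolol change was then compared between kinds of material with an interaction term. The 3 such comparisons share libraries with each other in pairs. In those with CD4 T cells, the kind of material and the count table cannot be told apart. Against lung, the propranolol change in the libraries labelled CD4 T cells was higher for 15 ATF4 branch and 15 ER branch genes and lower for none, where 24.0% of tested genes were called higher and 32.2% lower, with a median difference of -0.26 over all genes. Chac1 differed by 6.05 log2 units (SE 0.28, adjusted p = 4.81e-12), Atf4 by 2.55 (SE 0.10, adjusted p = 1.07e-12) and Hspa5 by 2.23 (SE 0.10, adjusted p = 4.96e-12). The members without a called difference were Ddit4 (0.15 ± 0.15), which fell in both, Dnajc3 (-0.11 ± 0.093) and Sel1l (-0.22 ± 0.10).

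Against the libraries labelled monocytes, the change in those labelled CD4 T cells was higher for 13 ATF4 branch and 14 ER branch genes and lower for 1, Ddit4 (-1.46), where 23.8% of tested genes were called higher and 24.0% lower, with a median difference of -0.08. Hspa5 (2.27), Dnajb9 (2.24) and Herpud1 (2.20) had the largest differences of the ER branch. Asns, Phgdh, Sdf2l1, Edem1 and Pdia4 had no called difference. Between the libraries labelled monocytes and lung, the change was higher in the former for 11 ATF4 branch genes and lower for none, where 25.2% of tested genes were called higher and 32.3% lower, with a median difference of -0.17. Slc7a5 (1.99) and Ddit4 (1.69) differed most. In the ER branch 6 genes had a higher change in the libraries labelled monocytes, led by Atf6 (0.82), and 5 a lower one, namely Herpud1 (-0.79), Xbp1 (-0.55), Dnajb9 (-0.41), Sel1l (-0.39) and Dnajc3 (-0.38). Hspa5 had fallen in both, and its difference was 0.03 (SE 0.11, adjusted p = 0.816).

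Set side by side, 7 ATF4 branch genes (Chac1, Mthfd2, Phgdh, Psat1, Sesn2, Shmt2 and Slc7a5) were called lower in lung and higher in both of the other kinds of material. A further 7 genes, all of the ER branch (Calr, Canx, Hsp90b1, Hspa5, Manf, Pdia3 and Pdia6), were called lower in lung and in the libraries labelled monocytes and higher in those labelled CD4 T cells. Of these, Hspa5, Calr and Manf kept the rise in CD4 T cells on library totals alone. The pattern of the 7 ATF4 branch genes rested on the fit. With the melanocyte level in the lung fit all of them but Sesn2 turned sign and none was called in lung. In 1 fit with lung only Chac1 kept its monocyte call, and with the monocyte libraries summed Mthfd2, Psat1, Sesn2 and Shmt2 lost theirs. Pdia4 and Sdf2l1 were called lower in all 3. No member was called higher in all 3. How many of all tested genes share each of these patterns was not counted, so the counts are not a result about the branches. The 7 ER branch genes with an ER stress element in the promoter had log2 changes of Hspa5 (1.47), Calr (0.76), Pdia6 (0.40), Canx (0.24), Hsp90b1 (0.21), Creld2 (0.10) and Dnajc3 (-0.13) in the libraries labelled CD4 T cells, and Dnajc3 and Creld2 were the ones that did not pass the test. Among ER branch genes with a window but no such element, Herpud1, Dnajb9, Xbp1, Pdia3 and Edem1 rose there, and Pdia4, Sdf2l1 and Sel1l fell. Of the 5 ATF4 branch genes with the composite core, Chac1 (5.71), Trib3 (4.55), Slc7a11 (4.39) and Nupr1 (2.95) rose there and Asns (0.39) was not called. All ATF4 branch genes with a window but no core rose there too, except Ddit4, which fell.

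**Figure D4:**
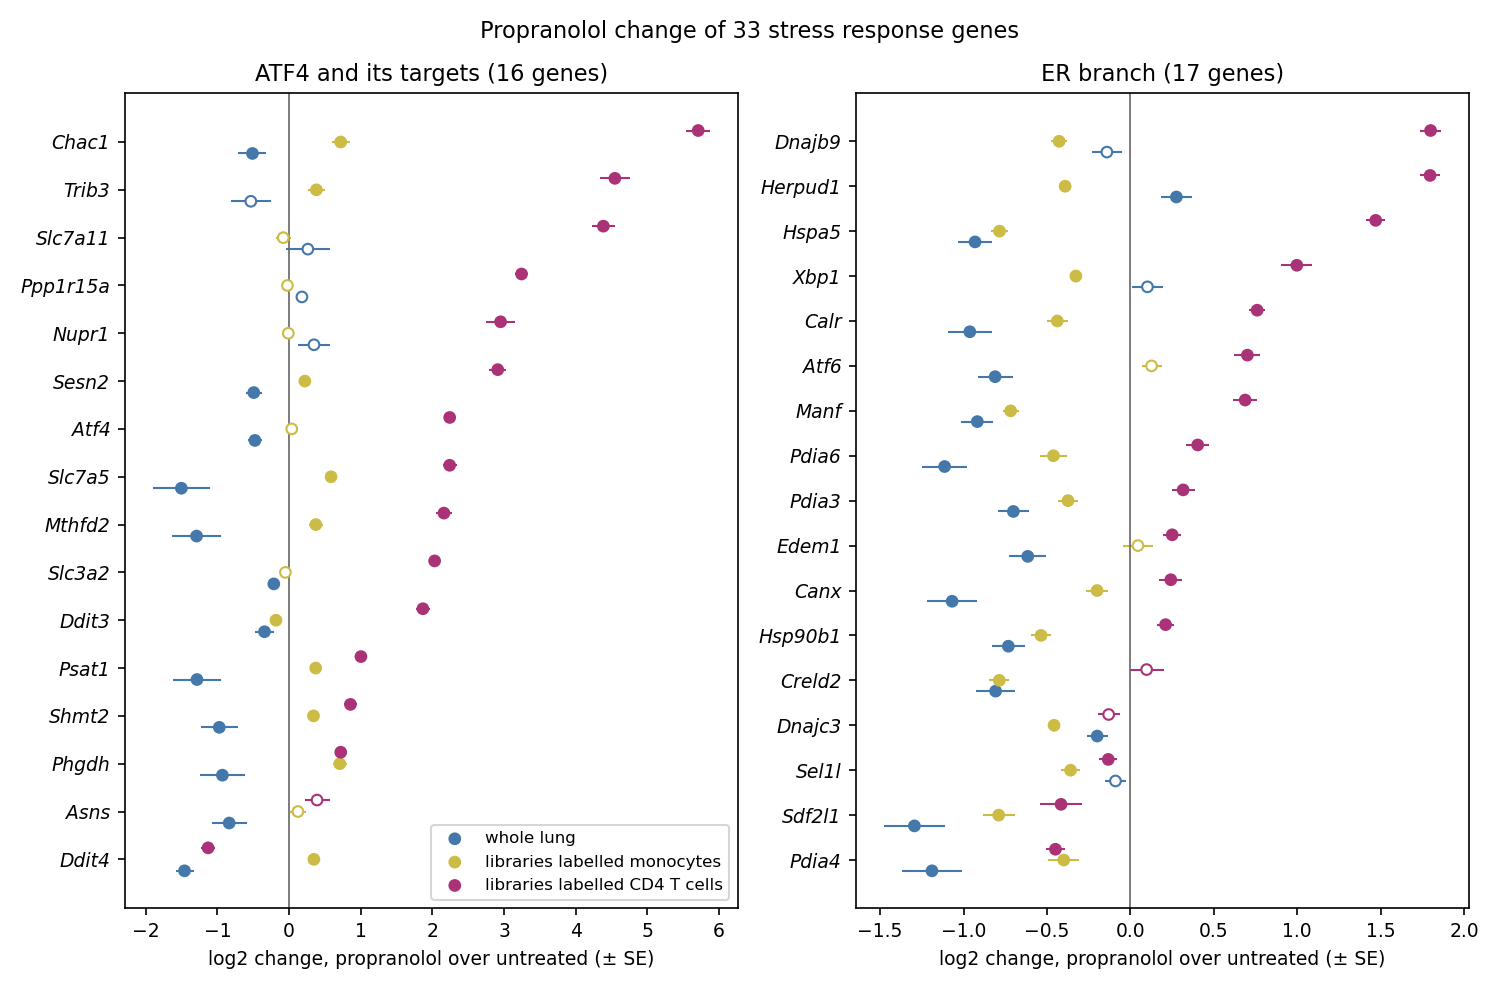
Log2 change with propranolol (horizontal axis, ± SE) of the ATF4 branch (left) and the ER branch (right) in the 3 kinds of material; filled points were called and open points were not, and genes are ordered by the change in CD4 T cells. The left panel reaches 5.71 (Chac1) and the right panel 1.80 (Dnajb9) in the libraries labelled CD4 T cells.

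Other genes of the pathway were counted in 5 lists. Their counts are read against the shares over all tested genes, 35.5% higher and 35.3% lower in lung, 14.3% and 16.1% in the libraries labelled monocytes, and 30.1% and 29.9% in those labelled CD4 T cells. A count near these shares, such as that of the other ATF4 targets higher in lung or of the synthetases higher in the libraries labelled monocytes, is not a result about its list. Of the aminoacyl-tRNA synthetases, which charge tRNAs and hold many ATF4 targets, in lung 0 of 12 rose and 10 fell (median -0.68), in the libraries labelled monocytes 2 of 12 rose and 1 fell (median 0.04), and in those labelled CD4 T cells 12 of 12 rose and 0 fell (median 1.21). Cars fell in lung (-0.70) and rose in CD4 T cells (2.11), where Nars (1.63) and Aars (1.74) rose next. Of the other ATF4 targets and partners, in lung 8 of 23 rose and 10 fell (median -0.09), in the libraries labelled monocytes 4 of 23 rose and 7 fell (median -0.04), and in those labelled CD4 T cells 15 of 23 rose and 3 fell (median 0.59). In CD4 T cells the transcription factor genes Atf3 (6.78) and Cebpb (2.31) and the arginine carrier Slc7a1 (2.26) rose, whereas the mitochondrial folate gene Mthfd1l fell there (-0.64) and rose in the libraries labelled monocytes (0.62). In lung the glutamine carrier Slc1a5 rose (0.65) and Eif4ebp1, a translation inhibitor, fell (-1.15). Atf5, a relative of Atf4, fell in the libraries labelled monocytes (-0.56).

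Of the stress sensors and translation control, in lung 1 of 15 rose and 11 fell (median -0.42), in the libraries labelled monocytes 2 of 15 rose and 0 fell (median 0.10), and in those labelled CD4 T cells 8 of 15 rose and 4 fell (median 0.25). Ern1, the gene of IRE1, rose in lung (0.32) and in CD4 T cells (1.19). Eif2ak3, the gene of PERK, had the smallest p of this list in CD4 T cells (1.86), and Eif2ak2, the kinase that senses viral RNA, fell there (-0.65). In lung Eif2b5 (-0.72) and Eif2b2 (-1.14), subunits of the factor that recharges eIF2, fell. Of the other ER folding and export genes, in lung 1 of 20 rose and 19 fell (median -0.61), in the libraries labelled monocytes 1 of 20 rose and 6 fell (median -0.09), and in those labelled CD4 T cells 9 of 20 rose and 3 fell (median 0.19). The oxidase genes went apart in lung, where Ero1a fell (-1.92) and Ero1b rose (0.53), and Ero1b rose in CD4 T cells too (1.31). Hyou1, a large ER Hsp70, fell in the libraries labelled monocytes (-0.64). Of the ER degradation genes, in lung 1 of 15 rose and 9 fell (median -0.25), in the libraries labelled monocytes 0 of 15 rose and 5 fell (median -0.09), and in those labelled CD4 T cells 10 of 15 rose and 3 fell (median 0.42). The gene that rose in lung was Derl3 (1.66), which is also a plasma cell marker here. Syvn1, the ubiquitin ligase that works with Sel1l, fell in the libraries labelled monocytes (-0.48), and the conjugating enzyme gene Ube2j1 rose in CD4 T cells (1.62).

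**Figure D5:**
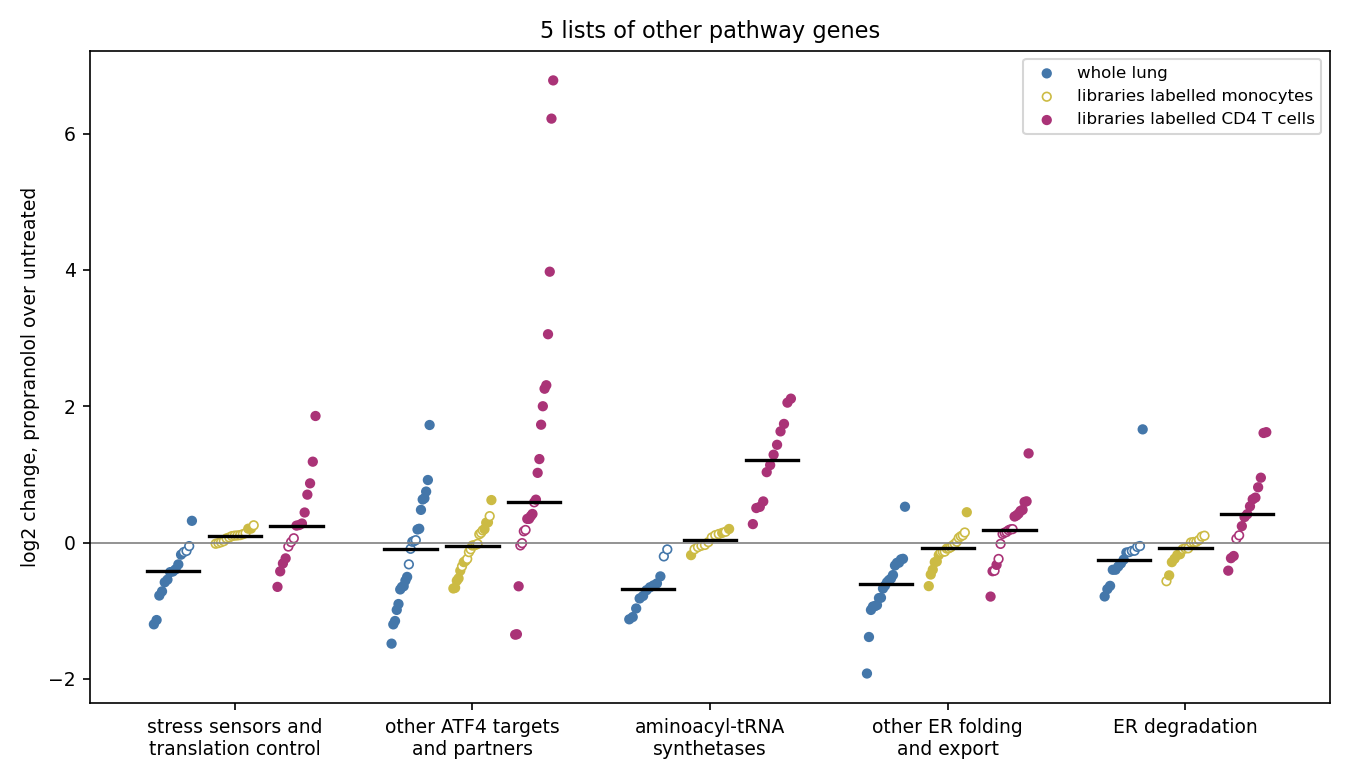
Log2 change with propranolol (vertical axis) of each tested gene in 5 lists of other pathway genes, by kind of material; filled points were called, open points were not, and black lines are medians. The aminoacyl-tRNA synthetases lie below 0 in lung and above 0 in the libraries labelled CD4 T cells, in every tested gene of the list.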

How the data were processed

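Gene counts were deposited by the authors as whole numbers, in a table of lung and monocyte libraries and another of CD4 T cells (2 in all), without normalization. Per the submitters' processing notes the tools were STAR 2.7.9, featureCounts and Subread 2.0.3 with build GRCm39. No source used here says whether strand was counted, and overlapping genes are uncertain. Symbols came from a table of Ensembl IDs (94.0% of 55416 IDs matched). Ddit3 has 2 IDs, of which the one with the larger total count over all libraries was used.

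The members and lists were chosen with earlier results of these data known. Each comparison used only its own libraries. Genes were kept by filterByExpr (minimum count 10), scaled by TMM and tested in edgeR (version 4.0.16, R 4.3.3) by quasi-likelihood. Adjusted p-values are Benjamini-Hochberg values over all tested genes, and the threshold was 0.05. Material contrasts and interactions used the same test. Log2 changes are propranolol over untreated. Their SE was derived from the test, as the size of the log2 change over the square root of its F value. Levels per kb used merged exon lengths of GENCODE M21, matched by ID for 33 of 33 members. No gene positions are given, because the builds of counts and annotation differ; promoter windows are RefSeq's.

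All members were named. Values per library were given for Atf4, Ddit3, Xbp1 and Hspa5 and, per comparison and branch, up to 4 members with the smallest p. They were also given, outside this rule, for Herpud1 in lung and for Asns and Ddit4 in CD4 T cells. From the other lists up to 3 genes per direction were named in order of p. Alternatives were DESeq2 1.42.0 size factors and its test, limma-voom (limma 3.58.1), no filter, a floor of 5 CPM on the mean, a block for the replicate number, leaving out single libraries, lung and monocyte libraries in 1 fit, and in lung a melanocyte covariate and scaling on resident markers. Summed monocyte libraries, library totals alone and leaving out treated lungs 1 and 5 were chosen after seeing the data. Scripts were tested on simulated counts. Total counts of 17625672 to 48306925 per library set the precision of low genes such as Chac1.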

Additional observations from a re-analysis of the deposited data

Results flagged for a closer look

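Single libraries stood apart in 4 of the 198 sets formed by 33 genes and 6 groups, judged by the gap to the nearest library over the range of the group; chance gives about 1 in 20. Xbp1 in treated lung 5 was 149 CPM, with the others from 180.0 to 189.5 CPM. Trib3 in untreated library 3 labelled monocytes was 5.58 CPM, with the others from 7.15 to 7.25 CPM. Herpud1 in treated CD4 T cell library 2 was 501 CPM, with the others from 437 to 444 CPM, and Canx in treated CD4 T cell library 1 was 396 CPM, with the others from 474 to 476 CPM.

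Members called in opposite directions in 2 kinds of material, with a called difference, were flagged next. How many of all genes meet this rule was not counted, so the counts are not a result about the members. Called differences covered 57.4% of all tested genes between the libraries labelled monocytes and lung. They covered 56.2% between CD4 T cells and lung, and 47.7% between CD4 T cells and the libraries labelled monocytes. The value after each gene is the difference of log2 changes from the interaction fit. Between the libraries labelled monocytes and lung these were 8 ATF4 branch genes, Chac1 (1.119), Sesn2 (0.60), Ddit4 (1.69), Psat1 (1.56), Phgdh (1.54), Shmt2 (1.21), Mthfd2 (1.57) and Slc7a5 (1.99), and in the ER branch Herpud1 (-0.79). Between CD4 T cells and lung they were 10 ATF4 branch genes, Atf4 (2.55), Ddit3 (2.04), Chac1 (6.05), Sesn2 (3.23), Psat1 (2.13), Phgdh (1.498), Shmt2 (1.67), Mthfd2 (3.29), Slc3a2 (2.07) and Slc7a5 (3.59), and 9 ER branch genes, Atf6 (1.34), Hspa5 (2.23), Hsp90b1 (0.77), Pdia3 (0.84), Pdia6 (1.35), Calr (1.55), Canx (1.14), Manf (1.44) and Edem1 (0.70). Between CD4 T cells and the libraries labelled monocytes they were Ddit3 (2.06) and Ddit4 (-1.46) in the ATF4 branch and 10 ER branch genes, Xbp1 (1.34), Herpud1 (2.20), Hspa5 (2.27), Hsp90b1 (0.76), Dnajb9 (2.24), Pdia3 (0.70), Pdia6 (0.88), Calr (1.21), Canx (0.46) and Manf (1.42). The directions of Hsp90b1, Pdia3, Canx and Edem1 in CD4 T cells turned on library totals alone. The part of the melanocyte, heat shock and other marker lists that moved in the same libraries was not tested in these differences.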

How the results depend on the processing

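In lung, no filter left 0 ER branch genes higher. A mean of at least 5 CPM, and library totals alone, each gave 1 ATF4 branch and 2 ER branch genes higher, lung and monocyte libraries in 1 fit 2 and 2, and leaving out treated lungs 1 and 5 gave 1 ATF4 branch gene higher. With the melanocyte covariate 1 ATF4 branch gene was higher, 1 lower and 0 ER branch genes higher, and the sign turned for Ddit3 (0.0152), Chac1 (0.1361), Asns (0.0514), Psat1 (0.0028), Phgdh (0.2706), Shmt2 (0.0103), Mthfd2 (0.0432) and Slc7a5 (0.0095), none of them called. Scaled on resident markers 0 ER branch genes were higher, and Ppp1r15a (-0.56), Xbp1 (-0.62) and Herpud1 (-0.43) turned. Over fits without 1 library, 0 to 1 ATF4 branch and 0 to 1 ER branch genes were higher, and 9 to 13 ATF4 branch and 13 ER branch genes lower. In the libraries labelled monocytes, 0 ATF4 branch genes were lower with no filter, on library totals alone (where 1 ER branch gene was higher), in 1 fit with lung (1 higher) and summed into 2 against 2 (3 higher, 9 ER branch genes lower), and 0 to 1 over fits without 1 library (7 to 9 higher, 14 to 15 ER branch genes lower). In CD4 T cells library totals alone gave 7 ER branch genes higher and 7 lower and turned Hsp90b1 (-0.18), Pdia3 (-0.0715), Canx (-0.14), Creld2 (-0.29) and Edem1 (-0.14). The causes were not tested. The counts of called members in the interactions and untreated contrasts stayed within 1.5 times under every alternative run. Library totals alone, which changed the ER branch counts in CD4 T cells, and limma-voom were not run for these comparisons.

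Deviations from the group mean did not pair same-numbered libraries (correlations of -0.10 to 0.55 in lung, -0.54 to -0.28 in the libraries labelled monocytes and -0.047 to 0.034 in CD4 T cells). Differently numbered libraries labelled monocytes did go together across treatments. Untreated 1 and 2 went with treated 3 and 4 (0.265 to 0.572), and untreated 3 and 4 with treated 1 and 2 (0.407 to 0.513). A block on the replicate number does not join these libraries, so it does not test this grouping. With the replicate number as a block, 0 ATF4 branch genes fell in the libraries labelled monocytes, where Ddit3, Trib3, Sesn2, Mthfd2 and Canx lost their calls and those over all genes went from 30.5% to 19.4%. Sel1l lost its call in CD4 T cells and Trib3 gained one in lung; no other count of members moved by over 1.5 times.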
